A study of Homo sapiens with 8 samples.

Results

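The NOTCH receptors NOTCH1, NOTCH2 and NOTCH3 were followed across an LDB1 knockdown in human T-ALL cell lines. So were the genes listed here as NOTCH targets, HES1, HES4, HES6, DTX1, NRARP and PTCRA. FBXW7, a subunit of the ubiquitin ligase that marks the active receptor for degradation, was followed too. These 10 genes were taken by symbol from count tables of 64252 genes, and each symbol matched 1 gene in both tables. RNA was sequenced from 6T-CEM, a line derived from CCRF-CEM cells, and from J.gamma1, a derivative of Jurkat cells selected for loss of phospholipase C gamma 1. Cells of each line carried a control hairpin (sh-NC) or a hairpin that targets LDB1 (sh-LDB1), delivered by lentivirus and followed by puromycin selection per the study's methods. Each of the 4 groups, 6T-CEM sh-NC, 6T-CEM sh-LDB1, J.gamma1 sh-NC and J.gamma1 sh-LDB1, had 2 libraries. No further treatment was named for any group, and which LDB1 hairpin the sequenced cells carried was not named. Each line is a single cell line, and the labels do not say whether the 2 libraries of a group came from separate cultures, so the p-values below measure the spread between these libraries, which may be technical.

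NOTCH receptors are cut after a ligand on a neighbouring cell binds them, first by an ADAM protease and then by gamma-secretase. The freed intracellular domain enters the nucleus and joins the DNA-binding protein RBPJ and a MAML coactivator. This complex switches on targets such as some repressors of the HES family, DTX1, NRARP and PTCRA, the gene of the pre-T-cell receptor alpha chain. The pathway drives early T-cell commitment, NOTCH1 is the receptor most often activated by mutation in T-ALL, and both parental lines are known to carry altered NOTCH pathway genes, which gene-level counts do not resolve. LDB1 is an adaptor that holds enhancers and promoters together through LIM-domain and other transcription factors.

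The promoters of HES1, HES4, HES6 and PTCRA are shown because these genes separated the lines or the knockdown most clearly among the targets. Promoter windows of 300 bases, 250 before and 50 after an annotated start, were taken from RefSeq on GRCh38.p14 for the 9 members that matched an entry. The 250 bases before the start are printed 5′ to 3′ on the strand of the gene, at chr3:194135898-194136147 (plus strand) for HES1, chr1:1000098-1000347 (minus strand) for HES4, chr2:238240039-238240288 (minus strand) for HES6 and chr6:42915803-42916052 (plus strand) for PTCRA. The gene bounds given below are from GENCODE and reach past the RefSeq starts used here for HES4, HES6 and PTCRA. The printed bases of HES6 thus lie wholly, and those of HES4 and PTCRA partly, inside those bounds. Capitals mark matches on either strand to GTGNGAA, a form of the RBPJ site, and to CAGCTG, an E-box bound by basic helix-loop-helix factors.
HES1: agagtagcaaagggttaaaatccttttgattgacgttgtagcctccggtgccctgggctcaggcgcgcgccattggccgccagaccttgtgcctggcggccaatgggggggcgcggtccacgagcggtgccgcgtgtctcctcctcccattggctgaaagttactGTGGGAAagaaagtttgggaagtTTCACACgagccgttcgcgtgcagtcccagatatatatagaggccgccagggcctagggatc
HES4: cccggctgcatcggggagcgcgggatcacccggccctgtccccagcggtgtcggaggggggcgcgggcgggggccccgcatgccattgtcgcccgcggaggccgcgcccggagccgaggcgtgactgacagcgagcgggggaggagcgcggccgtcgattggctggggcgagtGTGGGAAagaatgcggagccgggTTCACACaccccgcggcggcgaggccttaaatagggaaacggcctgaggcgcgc
HES6: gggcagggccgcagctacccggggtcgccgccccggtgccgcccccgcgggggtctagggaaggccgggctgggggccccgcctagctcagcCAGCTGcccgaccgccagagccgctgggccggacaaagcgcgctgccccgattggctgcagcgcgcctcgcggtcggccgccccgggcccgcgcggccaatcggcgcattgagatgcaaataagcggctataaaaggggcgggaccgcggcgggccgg
PTCRA: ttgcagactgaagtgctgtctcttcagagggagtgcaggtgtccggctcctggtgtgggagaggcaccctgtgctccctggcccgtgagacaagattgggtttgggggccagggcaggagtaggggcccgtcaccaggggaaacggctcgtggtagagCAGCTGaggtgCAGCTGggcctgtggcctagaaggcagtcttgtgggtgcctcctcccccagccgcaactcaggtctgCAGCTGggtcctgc

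In HES1 and HES4 the RBPJ motif occurred 2 times, as GTGGGAA on the gene's strand and GTGTGAA on the opposite strand, with 16 bases between the matches in both genes. GTGNGAA was found in 13.8% of all 35116 windows of this length, and facing matches 15 to 17 bases apart in 4 windows (0.0114%), a spacing chosen after the HES1 and HES4 sites were seen. Besides HES1 and HES4, those windows belonged to ITIH4 and PLPPR5-AS1, which are named here after the search. PTCRA held 3 copies of CAGCTG and HES6 held 1, and 17.9% of all windows held at least 1. At least 2 copies were present in 2.05%. Among the other members, 1 of the 4 FBXW7 windows held 1 CAGCTG, and NOTCH1, NOTCH2, NOTCH3 and NRARP held neither motif. The GATA motif AGATAA, searched on both strands and present in 10.3% of all windows, was found in 0 of the members' windows. The motifs do not overlap one another in the printed sequences, and a match describes the letters alone.

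The deposited counts summed to between 26160492 and 30604977 per library, of which the 10 members held between 0.0345% and 0.0631%. Levels below are CPM, counts scaled by library size after TMM, a correction for library composition, and 3 counts correspond to at most 0.115 CPM. LDB1, the target of the shRNA, fell by 1.60 on the log2 scale in 6T-CEM and by 0.89 in J.gamma1. Its mean level went from 109 to 36.0 CPM in 6T-CEM and from 59.5 to 32.0 CPM in J.gamma1. All 8 T-lineage markers looked for, among them CD3D, CD3E and LCK, were detected in each group, although CD2 was scarce in 6T-CEM. Its level there was 0.309 to 0.490 CPM, from no more than 14 counts per library. The myeloid marker LYZ stood at a similar 0.343 to 0.539 CPM in 6T-CEM. In J.gamma1 the CD2 level was 3.72 to 6.21 CPM. The erythroid marker HBB was at 0 counts in each group. The 4 B-cell markers summed to between 26.3 and 26.5 CPM with sh-NC and between 38.4 and 43.1 CPM with sh-LDB1 in 6T-CEM, and to between 65.4 and 66.7 CPM and between 75.6 and 75.8 CPM in J.gamma1, nearly all from CD79A, while MS4A1 had at most 3 counts in any library. CD79A was called higher in both lines (log2 fold change 0.74 in 6T-CEM, 0.20 in J.gamma1), as was the fibroblast marker COL1A1 (2.67 and 1.11), whose highest level was 9.27 CPM. Of the myeloid markers, MPO was called higher in 6T-CEM (1.90, from 9 and 8 counts to 38 and 32) and was at 0 in J.gamma1, and the 4 myeloid and 3 epithelial markers summed to at most 2.71 and 1.06 CPM in any library. The summed level of the T-lineage markers moved with the knockdown, from between 1687 and 1775 CPM to between 2229 and 2239 CPM in 6T-CEM and from between 2225 and 2227 CPM to between 3015 and 3024 CPM in J.gamma1. In 6T-CEM 5 of these 8 markers were higher and 1 lower, and in J.gamma1 4 were higher and 2 lower. The part of these marker changes in the results on NOTCH genes was not tested.

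Before any knockdown the lines differed in which receptor and which HES gene they held. 6T-CEM control cells had high NOTCH1 and HES1, whereas J.gamma1 control cells had less NOTCH1, more NOTCH2, NOTCH3, HES4 and HES6, and HES1 close to the lower limit of the counts. To compare genes, counts were divided by the length of exon as well as by library size (reads per kilobase of exon after scaling, RPKM). In 6T-CEM sh-NC cells NOTCH1 (34.6 ± 2.97 RPKM, SD, n = 2) and HES1 (32.2 ± 0.609) stood above the rest and their libraries overlapped. DTX1 (8.68 ± 0.364) and FBXW7 (4.78 ± 0.473) came next, followed by HES4 (2.29 ± 0.513) and HES6 (2.26 ± 0.0584), whose libraries overlapped. NOTCH2 (1.80 ± 0.0175), NOTCH3 (1.31 ± 0.267) and PTCRA (0.929 ± 0.524) were lower, with NOTCH3 and PTCRA overlapping, and NRARP (0.0786 ± 0.00809) was lowest.

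In J.gamma1 sh-NC cells the order of RPKM levels began with HES4 (10.7 ± 0.887, SD, n = 2), HES6 (9.35 ± 0.301) and DTX1 (7.87 ± 0.455). The receptors lay close together in the middle, with NOTCH1 at 6.62 ± 0.249, NOTCH3 at 6.00 ± 0.438 and NOTCH2 at 4.68 ± 0.0556, the last overlapping FBXW7 at 4.69 ± 0.0150. PTCRA (1.84 ± 0.428), HES1 (0.369 ± 0.132) and NRARP (0.216 ± 0.0348) were lowest. FBXW7 has the members' widest gap between the bases covered by all its exons (11293) and its longest transcript (5653). With the longest transcript as the length, FBXW7 in J.gamma1 sh-NC cells stood at 9.37 RPKM, above DTX1 at 8.79 and NOTCH1 at 8.41, and NOTCH2 at 6.86 stood above NOTCH3 at 6.51, so these orders turned. In 6T-CEM sh-NC cells HES6 (2.76 RPKM) and NOTCH2 (2.63) then stood above HES4 (2.46).

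**Figure D1:**
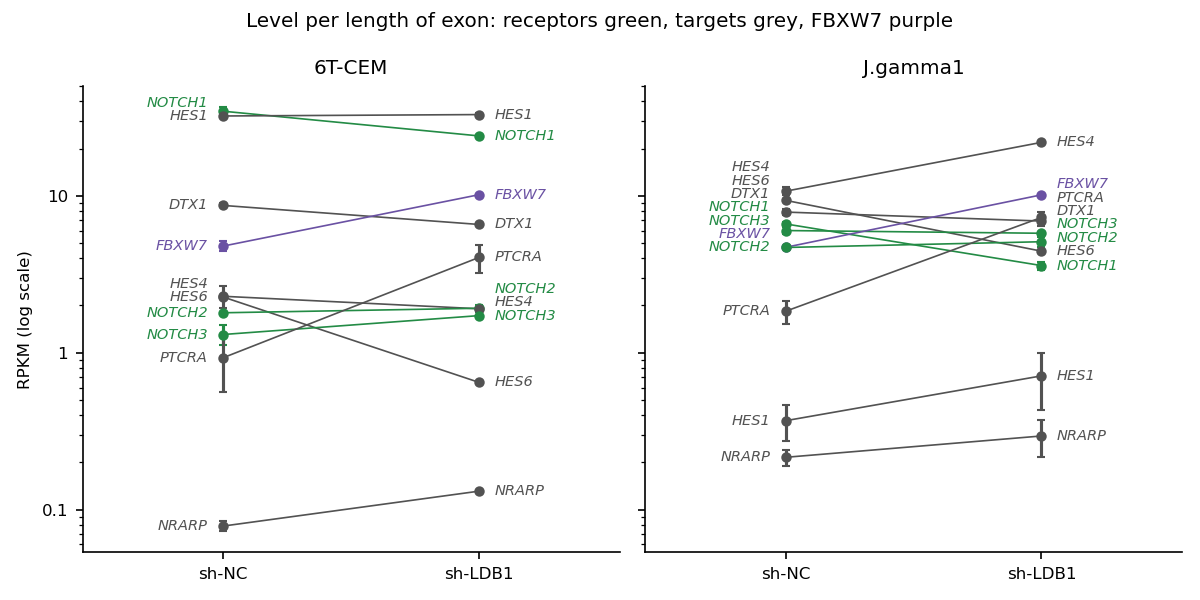
Mean level in RPKM (vertical axis, log scale) of the 10 members in sh-NC and sh-LDB1 cells of 6T-CEM (left) and J.gamma1 (right). Points are means, bars run from the lower to the higher of 2 libraries, lines join the same gene. NOTCH1 and HES1 lead in 6T-CEM and HES4 leads in J.gamma1, where HES1 lies below 1 RPKM.

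HES1 (ENSG00000114315, chromosome 3, 194136148 to 194138732 on GRCh38, plus strand) showed the largest difference between the control groups among the members. HES1, a repressor and the best-known NOTCH target, had 65.5 and 67.3 CPM in control 6T-CEM cells. Control J.gamma1 cells had 0.567 and 0.951 CPM, from 18 and 30 counts. The groups did not overlap and J.gamma1 was 87.0-fold lower (log2 fold change -6.44, SE 0.255, edgeR adjusted p = 4.94e-08). Here and below an edgeR adjusted p comes from the quasi-likelihood test of edgeR, with Benjamini-Hochberg adjustment over all genes tested, and genes under 0.05 were called. NOTCH1 was 5.23-fold lower in J.gamma1 (log2 fold change -2.39, SE 0.072, edgeR adjusted p = 1.19e-10).

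In the opposite direction, NOTCH3 was 4.59-fold higher in J.gamma1 sh-NC than in 6T-CEM sh-NC (log2 fold change 2.20, SE 0.118), HES4 4.67-fold (2.22, SE 0.176), HES6 4.13-fold (2.05, SE 0.153) and NOTCH2 2.61-fold (1.38, SE 0.083), with edgeR adjusted p-values between 1.11e-08 and 2.74e-07. PTCRA was 1.97-fold higher (0.97, SE 0.376, edgeR adjusted p = 0.0387), a call that was lost without 6T-CEM sh-NC replicate 1 (0.49, edgeR adjusted p = 0.284) and without J.gamma1 sh-NC replicate 2 (0.72, edgeR adjusted p = 0.201). It was also lost without either J.gamma1 sh-LDB1 library, which enters only through the shared spread (0.98 each). NRARP (1.44, SE 0.614, edgeR adjusted p = 0.0570), DTX1 (-0.14, SE 0.088) and FBXW7 (-0.027, SE 0.067) were not called. Thus 7 of the 10 members were called, 5 higher and 2 lower in J.gamma1, against 65.7% of the 18552 genes tested (34.6% higher and 31.1% lower), so a called difference between the lines was common among genes in general. With a log2 fold change beyond 1 as well, 6 members were called, against 32.4% of genes. Line and any difference in handling between the lines cannot be told apart.

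A correction for GC content and exon length moved several of these values. It brought HES4 to 1.31 and NOTCH2 to 0.91 on the log2 scale, and NOTCH1 to -2.93. With it DTX1 (-0.56) and FBXW7 (-0.31) were called lower in J.gamma1, whereas HES1 stood at -6.44.

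The knockdown comparisons asked how each member responded to loss of LDB1 in each line. In both lines NOTCH1 and HES6 fell and PTCRA and FBXW7 rose, whereas NOTCH2, NOTCH3 and HES1 did not pass the test in either line. DTX1 fell in 6T-CEM and HES4 rose in J.gamma1. In 6T-CEM 5 of the 10 members were called (2 higher, 3 lower), with 9 tested, against 31.3% of the 16059 genes tested (15.1% higher, 16.2% lower). In J.gamma1 5 of 10 were called (3 higher, 2 lower) against 51.5% of 17215 genes (25.0% higher, 26.5% lower), so the members were called there about as often as genes in general. With a log2 fold change beyond 1 as well, HES6, PTCRA and FBXW7 were called in 6T-CEM, 3 of 10 against 5.13% of genes. By that rule HES4, HES6, PTCRA and FBXW7 were called in J.gamma1, 4 of 10 against 13.9% of genes. Called in the same direction in both lines were 4 members, against 19.7% of the 14902 genes tested in both. RNA came from whole cultures, so fewer cells of a kind and less RNA per cell cannot be told apart.

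**Figure D2:**
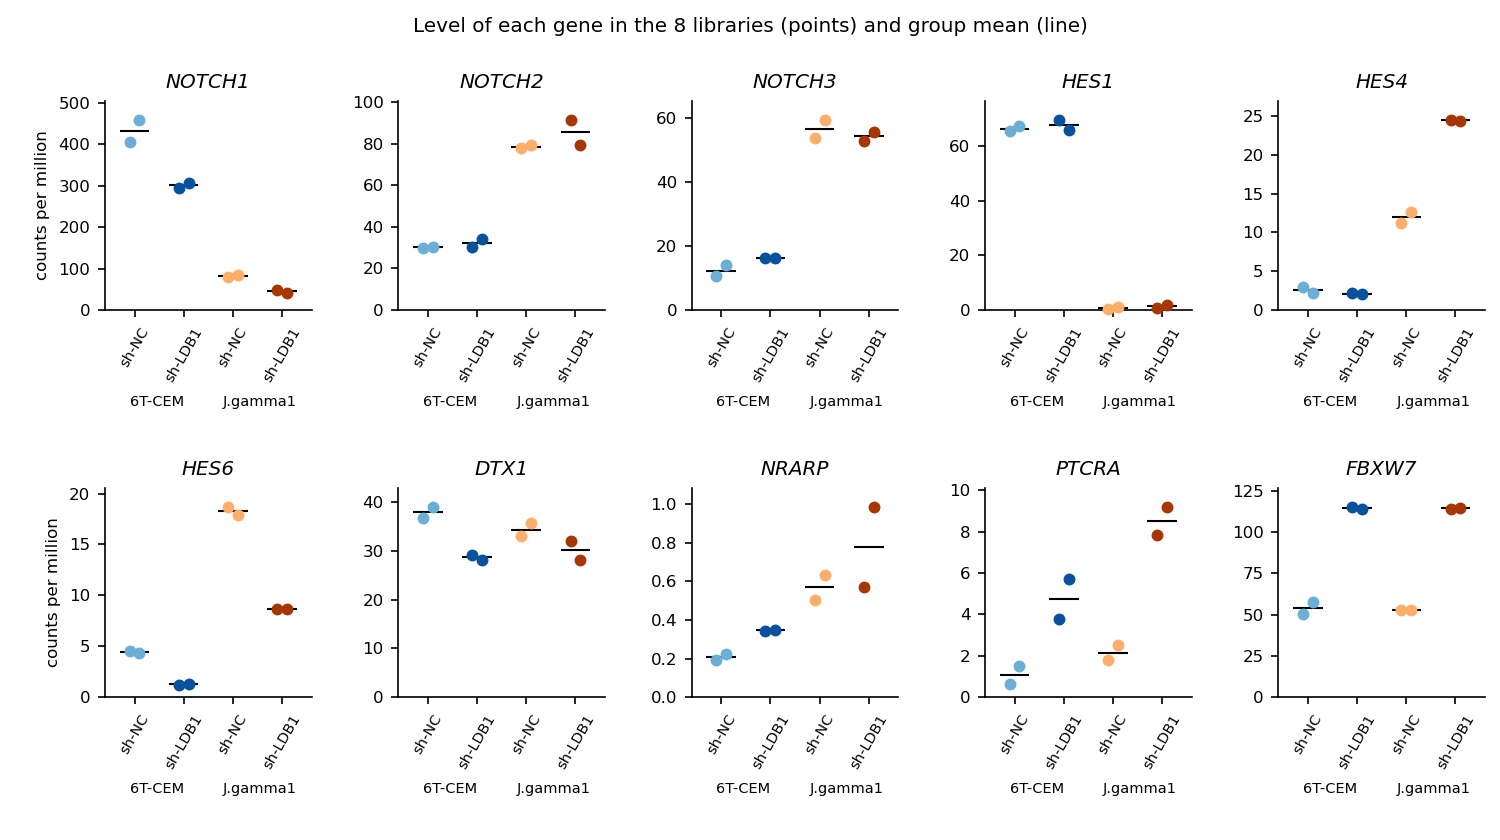
Level of each member in CPM (vertical axis, linear, from 0, a separate scale per gene) in the 8 libraries (points), with the group mean as a line. FBXW7 and PTCRA were higher and NOTCH1 and HES6 lower with sh-LDB1 in both lines, and HES1 was near 0 in J.gamma1.

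NOTCH1 (ENSG00000148400, chromosome 9, 136494433 to 136546048, minus strand) encodes the receptor that commits progenitors to the T lineage. NOTCH1 had 407 and 459 CPM in control 6T-CEM cells and 296 and 308 CPM with sh-LDB1. The J.gamma1 libraries held 80.7 and 85.1 CPM with sh-NC, against 47.7 and 42.3 CPM with sh-LDB1. The sh-LDB1 libraries lay below the sh-NC libraries in both lines, and even the lowest 6T-CEM library lay above all J.gamma1 libraries. NOTCH1 fell by 0.52 on the log2 scale in 6T-CEM (SE 0.062, edgeR adjusted p = 2.84e-05) and by 0.88 in J.gamma1 (SE 0.075, edgeR adjusted p = 4.02e-06).

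NOTCH2 (ENSG00000134250, chromosome 1, 119911553 to 120100779, minus strand), the receptor best known from B-cell and liver development, had 29.9 and 30.3 CPM with sh-NC and 30.3 and 34.0 CPM with sh-LDB1 in 6T-CEM. The J.gamma1 values were 77.7 and 79.1 CPM with sh-NC, against 91.4 and 79.2 CPM with sh-LDB1. In both lines 1 sh-LDB1 library lay beside the controls and the other above them, and the log2 fold changes of 0.10 (SE 0.094, edgeR adjusted p = 0.467) and 0.13 (SE 0.072, edgeR adjusted p = 0.164) were not called. The J.gamma1 value was called without J.gamma1 sh-LDB1 replicate 2 (0.23) and with the GC and length correction (0.24).

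NOTCH2 shares near-identical sequence with the NOTCH2NL genes, and reads from these copies may have been split between them, so its counts are uncertain. NOTCH2NLA had 60, 60, 40 and 36 counts in 6T-CEM (sh-NC, then sh-LDB1) and 269, 274, 128 and 104 in J.gamma1, where it fell (log2 fold change -1.08, SE 0.189, edgeR adjusted p = 0.000702). In 6T-CEM the value was -0.78 (SE 0.312, edgeR adjusted p = 0.0722). With its counts added to NOTCH2, the call on NOTCH2 was unchanged in both lines. NOTCH2NLB, NOTCH2NLC and NOTCH2NLR were not used here.

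NOTCH3 (ENSG00000074181, chromosome 19, 15159038 to 15200995, minus strand), a receptor that is also active in immature thymocytes, had 10.5 and 14.1 CPM with sh-NC and 16.3 and 16.2 CPM with sh-LDB1 in 6T-CEM. The 6T-CEM groups did not overlap, yet the log2 fold change of 0.40 (SE 0.151) missed the threshold (edgeR adjusted p = 0.0568). Without 6T-CEM sh-NC replicate 2 it was 0.63 (edgeR adjusted p = 0.0266), and without sh-NC replicate 1 it was 0.21 (edgeR adjusted p = 0.402). It was also called in the fit to all 8 libraries (0.40, edgeR adjusted p = 0.0313), with library totals (0.44), with a filter of 1 CPM (0.41) and with the replicate number as a block (0.42), at edgeR adjusted p-values between 0.0441 and 0.0480 in the last 3. In J.gamma1 NOTCH3 had 53.6 and 59.4 CPM with sh-NC and 52.9 and 55.6 CPM with sh-LDB1, which overlapped, with a log2 fold change of -0.051 (SE 0.073, edgeR adjusted p = 0.592). Of the 3 receptors, therefore, 1 fell and 0 rose in each line. Over all genes tested, 16.2% were called lower and 15.1% higher in 6T-CEM, and 26.5% and 25.0% in J.gamma1. The median log2 fold changes of the receptors were 0.10 (6T-CEM) and -0.051 (J.gamma1), beside 0.0027 and -0.00025 over all genes tested.

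**Figure D3:**
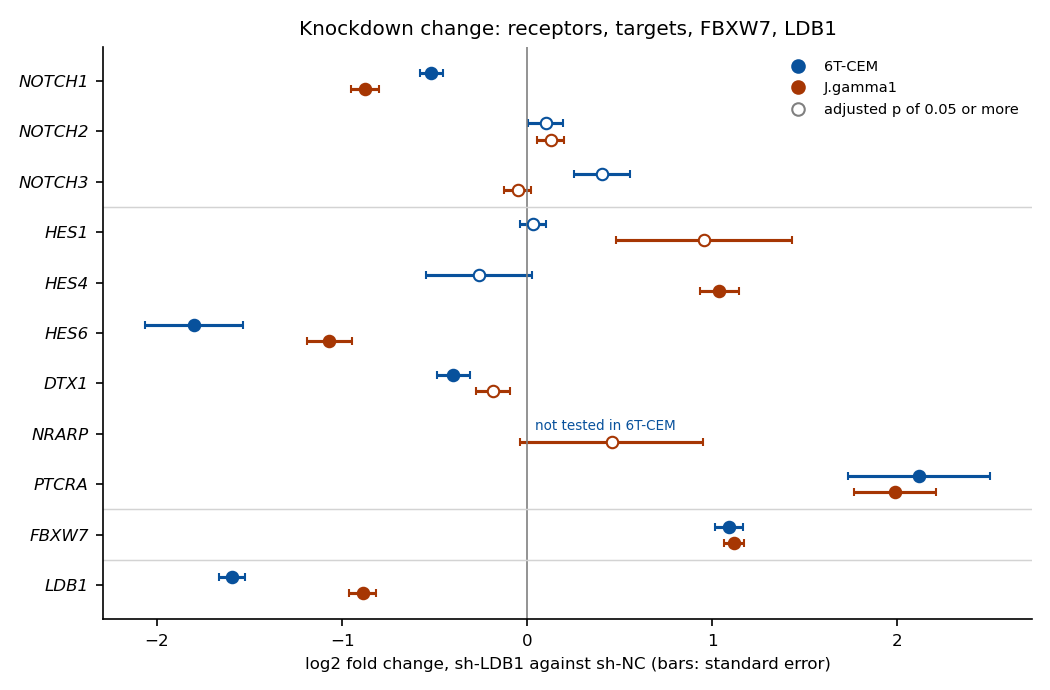
Log2 fold change of sh-LDB1 against sh-NC (horizontal axis) with its standard error as bars, for the receptors, the targets, FBXW7 and LDB1, in 6T-CEM (blue) and J.gamma1 (brown). Filled points have an adjusted p under 0.05. Receptors lie at or below 0.40, while the targets run from -1.80 for HES6 to 2.12 for PTCRA in 6T-CEM.

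The genes listed as targets showed no common direction, and whether NOTCH controls each of them in these lines was not tested. In 6T-CEM 1 of the 6 rose and 2 fell, with NRARP not tested, beside 31.3% of all genes called, and the median log2 fold change of the 5 tested was -0.26. That median is the value of HES4, which was not called. In J.gamma1 2 of the 6 rose and 1 fell, beside 51.5% of all genes called, with a median of 0.71. This median lies between NRARP (0.46) and HES1 (0.95), both of few counts and not called, so the medians of the 2 lines are uncertain. The figure of log2 fold changes sets receptors and targets side by side. NOTCH1 lay below 0 in both lines and NOTCH2 above 0 in both (0.10 and 0.13, not called). NOTCH3 lay at 0.40 in 6T-CEM and at -0.051 in J.gamma1, neither called. Receptors and targets thus both lay on either side of 0.

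PTCRA (ENSG00000171611, chromosome 6, 42915989 to 42925838, plus strand) is expressed in thymocytes before the T-cell receptor alpha chain. PTCRA went from 17 and 41 counts (0.654 and 1.52 CPM) in control 6T-CEM cells to 110 and 163 counts (3.77 and 5.70 CPM) after knockdown. The same gene went from 57 and 79 counts (1.80 and 2.51 CPM) to 219 and 271 counts (7.83 and 9.20 CPM) in J.gamma1. The groups did not overlap in either line, although the 6T-CEM sh-NC libraries differed widely from each other. PTCRA rose 4.34-fold in 6T-CEM (log2 fold change 2.12, SE 0.383, edgeR adjusted p = 0.00213) and 3.97-fold in J.gamma1 (1.99, SE 0.221, edgeR adjusted p = 2.72e-05). The 6T-CEM value was 1.64 without sh-NC replicate 1 and 2.85 without sh-NC replicate 2, so it lay in size above that of HES6 (-1.80) in some fits and below it in others.

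HES6 (ENSG00000144485, chromosome 2, 238238267 to 238240662, minus strand) belongs to the HES family but is known to oppose HES1 in neural cells. Control 6T-CEM libraries held 117 HES6 counts each (4.50 and 4.34 CPM), against 36 and 37 counts after knockdown (1.24 and 1.29 CPM). The J.gamma1 levels were 18.7 and 17.9 CPM with sh-NC, against 8.65 and 8.69 CPM with sh-LDB1. The libraries of each group lay close together and the groups were far apart. HES6 fell 3.48-fold in 6T-CEM (log2 fold change -1.80, SE 0.264, edgeR adjusted p = 0.000114) and 2.10-fold in J.gamma1 (-1.07, SE 0.120, edgeR adjusted p = 2.97e-05).

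HES4 (ENSG00000188290, chromosome 1, 998962 to 1000172, minus strand), a human HES1 relative that mice lack, had 2.96 and 2.15 CPM with sh-NC and 2.16 and 2.10 CPM with sh-LDB1 in 6T-CEM, where the groups overlapped (log2 fold change -0.26, SE 0.285, edgeR adjusted p = 0.540). Control J.gamma1 cells had 11.2 and 12.7 CPM, against 24.5 and 24.4 CPM with sh-LDB1. These groups did not overlap, and HES4 rose 2.06-fold (1.04, SE 0.106, edgeR adjusted p = 1.48e-05). HES4 was thus the leading member by RPKM in J.gamma1 before and after the knockdown. With the longest transcript as the length, HES4 (11.5 RPKM) and HES6 (11.4 RPKM) were nearly level in J.gamma1 sh-NC cells.

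HES1, with the same facing pair of RBPJ motifs as HES4, had 69.7 and 65.8 CPM with sh-LDB1 in 6T-CEM, which overlapped its controls (log2 fold change 0.034, SE 0.070, edgeR adjusted p = 0.765). The J.gamma1 libraries held 25 and 60 counts (0.893 and 2.04 CPM) after knockdown, against 18 and 30 in the controls, and the groups overlapped. The J.gamma1 log2 fold change of 0.95 (SE 0.476, edgeR adjusted p = 0.119) was not called. Without sh-LDB1 replicate 1 it was 1.43 (edgeR adjusted p = 0.0356) and without sh-LDB1 replicate 2 it was 0.24 (edgeR adjusted p = 0.775), so its size rested on 1 library. Even the highest J.gamma1 library, at 2.04 CPM, lay far below the lowest 6T-CEM library, at 65.5 CPM.

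DTX1 (ENSG00000135144, chromosome 12, 113056730 to 113098028, plus strand), the E3 ligase Deltex, had 36.8 and 39.0 CPM with sh-NC and 29.2 and 28.2 CPM with sh-LDB1 in 6T-CEM, without overlap. It fell there by 0.40 on the log2 scale (SE 0.088, edgeR adjusted p = 0.00298). Control J.gamma1 cells had 33.0 and 35.8 CPM, against 32.1 and 28.1 CPM with sh-LDB1, also without overlap, and the log2 fold change of -0.18 (SE 0.090, edgeR adjusted p = 0.111) was not called.

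NRARP (ENSG00000198435, chromosome 9, 137299631 to 137302271, minus strand), a feedback inhibitor of the NOTCH complex, was scarce in both lines. NRARP had 5 and 6 counts in control 6T-CEM cells and 10 in each library after knockdown, where it was below the filter on low counts and not tested. The J.gamma1 libraries held 16 and 20 counts in the controls and 16 and 29 after knockdown, which overlapped (log2 fold change 0.46, SE 0.494, edgeR adjusted p = 0.473). The J.gamma1 value lay between 0.017 and 0.79 with 1 library left out and was called in none of these fits.

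FBXW7 (ENSG00000109670, chromosome 4, 152320544 to 152536092, minus strand), which also targets MYC and cyclin E for degradation, gave nearly the same values in the 2 lines. FBXW7 went from 50.2 and 57.8 CPM to 115 and 114 CPM in 6T-CEM. In J.gamma1 the level went from 52.9 and 53.1 CPM to 114 and 115 CPM. All sh-LDB1 libraries lay above all sh-NC libraries. FBXW7 rose 2.13-fold in 6T-CEM (log2 fold change 1.09, SE 0.075, edgeR adjusted p = 7.87e-08) and 2.17-fold in J.gamma1 (1.12, SE 0.055, edgeR adjusted p = 6.16e-08). FBXW7 and PTCRA were called higher in both lines, as were 9.11% of the genes tested in both. FBXW7-AS1, which overlaps 127 exon bases of FBXW7 on the opposite strand, had 0 counts in both tables. No other gene of the tables overlapped a member's exons.

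Whether a member's response differed between the lines was tested as an interaction in a fit to all 8 libraries. It passed for 3 of the 10 members, against 24.4% of the 18552 genes tested (12.0% with a higher and 12.4% with a lower change in J.gamma1). For HES4 alone the difference was also beyond 1 on the log2 scale, 1 of 10 members against 5.86% of genes. HES4 had the clearest difference, with a knockdown change 1.30 higher on the log2 scale in J.gamma1 than in 6T-CEM (SE 0.248, edgeR adjusted p = 0.00250). This call held in all 14 alternatives, between 1.06 and 1.52. For HES6 the change in J.gamma1 was 0.73 above that in 6T-CEM (SE 0.230, edgeR adjusted p = 0.0376), a call that was lost without any 1 of the 8 libraries in turn, where the difference lay between 0.69 and 0.77.

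For NOTCH1 the fall was 0.36 deeper in J.gamma1 (difference -0.36, SE 0.099, edgeR adjusted p = 0.0207). It was not called without 6T-CEM sh-NC replicate 1 (-0.26), 6T-CEM sh-LDB1 replicate 2 (-0.32), J.gamma1 sh-NC replicate 2 (-0.32) or J.gamma1 sh-LDB1 replicate 2 (-0.28), nor with the GC and length correction (-0.26). The differences of FBXW7 (0.024, SE 0.093), NOTCH2 (0.026, SE 0.116) and PTCRA (-0.13, SE 0.485) were small beside their standard errors, widely so for PTCRA. NOTCH3 (-0.46, SE 0.162, edgeR adjusted p = 0.0620), HES1 (0.93, SE 0.418), DTX1 (0.21, SE 0.125) and NRARP (-0.27, SE 0.821) were not called. The NOTCH3 difference was called without 6T-CEM sh-NC replicate 2 (-0.68) and stood at -0.25 without 6T-CEM sh-NC replicate 1. The HES1 difference was called without J.gamma1 sh-LDB1 replicate 1 (1.39) and stood at 0.20 without J.gamma1 sh-LDB1 replicate 2. LDB1 itself differed, since its fall was 0.70 shallower in J.gamma1 (SE 0.095, edgeR adjusted p = 0.000237). Its level started lower in J.gamma1 and ended at a mean of 32.0 CPM, against 36.0 CPM in 6T-CEM. The differences between the lines and the comparison of control groups share their sh-NC libraries.

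A list of 62 other NOTCH pathway genes was described in the same fits. In 6T-CEM 51 were tested, of which 12 were higher and 11 lower, and in J.gamma1 58 were tested, of which 12 were higher and 23 lower, beside the 31.3% and 51.5% of all genes called. Among the ligands, JAG1, with 61 and 89 counts against 179 and 181, rose in 6T-CEM (log2 fold change 1.14, SE 0.229), while in J.gamma1 DLL1, with 30 and 23 counts against 6 and 4, fell (-2.23, SE 0.585) along with 2 more of the 5 ligands. The DLL1 call was lost with DESeq2 (-2.28) and without J.gamma1 sh-NC replicate 1 (-2.03) or sh-LDB1 replicate 2 (-1.93).

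Genes that mature or cut the receptor changed in both lines. ADAM10, the protease of the first cut, had 217 and 211 CPM with sh-NC against 161 and 145 CPM with sh-LDB1 in 6T-CEM, and 359 and 328 CPM against 130 and 134 CPM in J.gamma1. It fell in both, by 0.48 (SE 0.061) and by 1.37 (SE 0.055) on the log2 scale. FURIN, the convertase that cleaves the receptor on its way to the surface, rose in 6T-CEM (1.00, SE 0.085), and POFUT1, which adds fucose to the receptor, rose in J.gamma1 (0.61, SE 0.061). POFUT1 was called higher in 6T-CEM too (0.20, SE 0.060, edgeR adjusted p = 0.0190), a call lost without sh-NC replicate 1 (0.16), without either sh-LDB1 library (0.20 each) and with no filter on low counts (0.19). Of the 14 genes of this role, 12 were tested in 6T-CEM, where 3 rose and 4 fell, beside 31.3% of all genes passing the test. In J.gamma1 13 were tested, of which 2 rose and 6 fell, beside 51.5% of all genes.

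In the nuclear complex, RBPJ had 126 and 133 CPM with sh-NC against 101 and 101 CPM with sh-LDB1 in 6T-CEM, and 156 and 151 CPM against 91.1 and 84.5 CPM in J.gamma1. RBPJ fell in both lines (log2 fold change -0.35, SE 0.062, and -0.80, SE 0.057) and MAML1 rose in both (0.44, SE 0.076, and 0.45), so members of the same complex went opposite ways. MAML2, with 53 and 23 counts against 95 and 83, rose in J.gamma1 (1.37, SE 0.375), a call lost without sh-LDB1 replicate 1 (1.24). The MAML2 value was 0.89 without J.gamma1 sh-NC replicate 2 and 2.09 without J.gamma1 sh-NC replicate 1. Of the 7 corepressor genes, all tested, 2 rose and 2 fell in each line. The share of all genes passing the test was 31.3% for 6T-CEM, against 51.5% for J.gamma1. KDM1A was among the genes that fell in each line. Its log2 fold change was -0.44 (SE 0.052) for 6T-CEM, and its J.gamma1 value was -0.32 (SE 0.043). NUMBL, an inhibitor of NOTCH, rose in J.gamma1 (0.74, SE 0.124).

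Further genes listed as targets also went both ways, and whether NOTCH controls each of them in these lines was not tested. MYC, a direct NOTCH1 target in T-ALL, had 428 and 432 CPM with sh-NC against 310 and 328 CPM with sh-LDB1 in 6T-CEM, and 150 and 153 CPM against 218 and 222 CPM in J.gamma1. MYC fell in 6T-CEM (log2 fold change -0.43, SE 0.053) and rose in J.gamma1 (0.54, SE 0.046), and the interaction was called (0.97, SE 0.063, edgeR adjusted p = 1.49e-06). IL7R, the interleukin 7 receptor, rose in J.gamma1 from 15.8 and 13.8 CPM to 50.8 and 48.5 CPM (1.75, SE 0.090) and also rose in 6T-CEM (0.34, SE 0.072). GATA3, a T-lineage factor, fell in both lines (-0.54, SE 0.063, in 6T-CEM and -0.33, SE 0.058, in J.gamma1).

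HES2, another HES repressor, had 545 and 548 counts with sh-NC in J.gamma1 and 11 and 22 with sh-LDB1, and 0 counts in all 4 libraries of 6T-CEM. It fell by 4.90 on the log2 scale in J.gamma1 (SE 0.236, edgeR adjusted p = 5.72e-08). HES7 (-0.94, SE 0.369, edgeR adjusted p = 0.0536) was, like HES1, tested and not called in J.gamma1. The adjusted p-values of the pathway genes named above were, apart from POFUT1 in 6T-CEM, at most 0.0110 by edgeR in the line in which each is said to have risen or fallen.

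**Figure D4:**
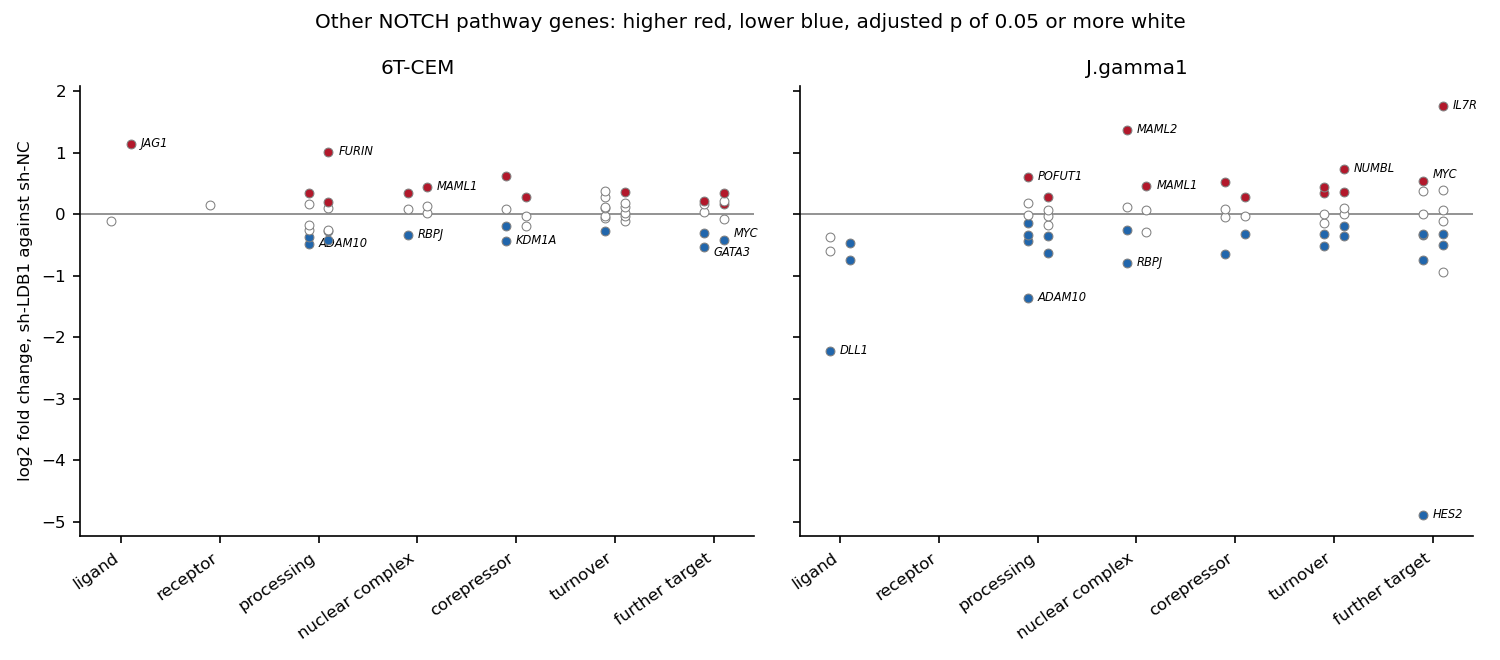
Log2 fold change of sh-LDB1 against sh-NC (vertical axis) for the other NOTCH pathway genes tested in 6T-CEM (left) and J.gamma1 (right), by role (horizontal axis). Points are genes, red if higher and blue if lower with an adjusted p under 0.05, white otherwise. HES2 at -4.90 and DLL1 at -2.23 lie lowest in J.gamma1. Of 58 genes tested there 23 are lower, beside 26.5% of all genes. In 6T-CEM 11 of 51 are lower, beside 16.2% of all genes.

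Genes whose pattern was most like that of NOTCH1 or HES1 were sought by Pearson correlation of log2 CPM over the 8 libraries among 13461 protein-coding genes, as a description. For NOTCH1 these included ERG (r = 0.999) and CTSH (0.998). ERG averaged 158 and 60.7 CPM in the sh-NC and sh-LDB1 cells of 6T-CEM and 3.98 and 0.943 CPM in those of J.gamma1. For HES1 they were RPS28, PCDHB9 and SDR42E1 (r = 0.999 each), of which RPS28 is a ribosomal protein gene with near-identical copies and is uncertain. The 8 libraries form 2 lines, so these values rest mostly on the difference between the lines.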

How the data were processed

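The authors used HISAT2 2.2.0 for alignment to hg38 and StringTie for quantification, and deposited unnormalized whole-number counts per gene, in 1 table per cell line. The strand setting, the annotation release and the treatment of reads that match several genes are not given in the sources used here. Gene symbols (56105 of 64252 genes), positions and exon lengths came from GENCODE release 44 on GRCh38. With R 4.3.3, each line was fitted by itself with edgeR 4.0.16 (robust quasi-likelihood, TMM, filterByExpr, Benjamini-Hochberg over all genes tested), without the replicate number as a term, and interaction and control contrasts came from a fit of 4 group means to 8 libraries. Each standard error is the size of the log2 fold change over the root of its F statistic. Replicate spread (biological coefficient of variation) was 9.68% for 6T-CEM and 9.16% for J.gamma1. Alternatives were other normalizations and filters, DESeq2 1.42.0, the replicate block, a spline offset (4 degrees of freedom) for GC content and exon length, leaving out each library, and adding NOTCH2NLA to NOTCH2. Steps were tested on simulated data. The members and gene lists were chosen with earlier results of these data known. Named were all members, LDB1, RBPJ, MAML1, MYC, NOTCH2 copies, overlapping genes, the 4 largest called falls and rises among other pathway genes per line, and the 3 genes most like NOTCH1 and HES1. HES7, CD79A, COL1A1 and MPO were named after their values were seen. A few genes that these rules name are not reported here. Figures were drawn with matplotlib 3.10.9.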

Additional observations from a re-analysis of the deposited data

Results flagged for a closer look

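The knockdown change differed between the lines for 3 of the 10 members, against 24.4% of the 18552 genes tested. The test was the interaction in edgeR's quasi-likelihood fit to all 8 libraries. Over 14 alternatives the call held in all for HES4, in 8 for NOTCH1 and in 2 for HES6. The difference, J.gamma1 minus 6T-CEM on the log2 scale, was -0.36 for NOTCH1 (SE 0.099, edgeR adjusted p = 0.0207), 1.30 for HES4 (SE 0.248, edgeR adjusted p = 0.00250) and 0.73 for HES6 (SE 0.230, edgeR adjusted p = 0.0376). Among the other genes named, the same test passed for JAG1 (-1.52), FURIN (-0.94), ADAM10 (-0.89) and RBPJ (-0.46). It also passed for POFUT1 (0.40), MYC (0.97), IL7R (1.41) and LDB1 (0.70), with edgeR adjusted p-values between 1.49e-06 and 0.00988. Only genes that passed are listed, and most were named for a large change within a line in these same libraries. Of the 62 other pathway genes, 60 were tested, with 9 differences higher and 10 lower in J.gamma1, beside 24.4% of all genes. The JAG1 call was lost without J.gamma1 sh-NC replicate 2 (-1.20, edgeR adjusted p = 0.0513). FURIN was at 23.9 and 24.3 CPM in control 6T-CEM cells and between 45.1 and 48.6 CPM in the other 6 libraries.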

How the results depend on the processing

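The 5 members called in 6T-CEM and the 5 called in J.gamma1 kept direction and call in all 15 alternatives of each line, and the highest adjusted p was 0.0489, for DTX1 in 6T-CEM. The number of members called for the difference between the lines was 3, and it lay between 1 and 3 with 1 library left out. Values of members that were not called changed sign as follows, and the cause was not tested. With 1 library left out, HES1 in 6T-CEM lay between -0.0028 and 0.070, NOTCH3 in J.gamma1 between -0.12 and 0.018, and FBXW7 between the control groups between -0.13 and 0.071. The differences between the lines then lay between -0.083 and 0.12 for NOTCH2, -0.72 and 0.058 for NRARP, -0.86 and 0.36 for PTCRA, and -0.074 and 0.13 for FBXW7. With DESeq2 the differences of NOTCH2 and FBXW7 were -0.011 and -0.013, and FBXW7 between the control groups was 0.015. Replicate numbers were shared across groups only as numbers, and deviations of same-numbered libraries had correlations of -0.025 and -0.016. With the replicate number as a block, 6 members were called in 6T-CEM (NOTCH3 added), 5 in J.gamma1, 4 for the difference and 7 between the control groups. In the same order, these fits called 5070 of 16059, 8785 of 17215, 4587 of 18552 and 12177 of 18552 genes tested. The difference of HES6 was lost (0.73, edgeR adjusted p = 0.0627) and those of HES1 (0.91) and NOTCH3 (-0.46) were called. With 2 libraries per group and few counts, the changes of NRARP and HES1 in J.gamma1 carried standard errors of 0.494 and 0.476.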
